A study of Arabidopsis thaliana with 12 samples.

Results

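Alternative oxidases and alternative NAD(P)H dehydrogenases are the non-phosphorylating enzymes of the plant mitochondrial electron transport chain. The 10 genes described here were taken by locus, one transcript per locus (the transcript with the highest mean level in WT), out of 33326 genes in the table. They are AOX1A (AT3G22370), AOX1B (AT3G22360), AOX1C (AT3G27620), AOX1D (AT1G32350) and AOX2 (AT5G64210), and the dehydrogenase genes NDA1 (AT1G07180), NDA2 (AT2G29990), NDB1 (AT4G28220), NDB2 (AT4G05020) and NDB4 (AT2G20800). RNA-Seq was run on Arabidopsis WT (Col-0) and on bou-2, a single T-DNA line in Col-0 that carries an insertion in an exon of BOU (AT5G46800), the gene of a mitochondrial carrier needed for full glycine decarboxylase activity. All plants grew for 35 days at 3000 ppm CO2 with 12 h of light and 12 h of darkness and were moved to ambient CO2 24 h before harvest. Each of the 4 groups (WT at day, bou-2 at day, WT at night, bou-2 at night) held 3 libraries, described as biological triplicates, and 12 libraries were measured in all. The design text places the day and night harvests 2 h after and 2 h before light onset, whereas in the paper the day harvest came within minutes of light onset and the night harvest 3 h ahead of it. Another label of the day samples gives the end of the day. Neither harvest time is therefore settled, which bears on the light-dependent NDA1. The labels name mature leaves as the tissue and the paper whole rosettes.

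In this chain, alternative oxidases take electrons from ubiquinol and pass them to oxygen, which bypasses complex III, cytochrome c and complex IV. Alternative NAD(P)H dehydrogenases pass electrons to ubiquinone without complex I. Enzymes of the NDA type face the mitochondrial matrix and those of the NDB type face the intermembrane space, where they oxidise cytosolic NADH or NADPH. None of these enzymes pumps protons, so reductant can be oxidised with little or no ATP formed. In leaves in the light, the glycine decarboxylase reaction of photorespiration is a large source of matrix NADH. AOX1A is the main leaf alternative oxidase gene and a widely used marker of mitochondrial stress, which reaches the nucleus through membrane-bound NAC transcription factors that bind the mitochondrial dysfunction motif.

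Promoter sequence is shown for 4 members, because 3 hold that motif and the remaining one, AOX1A, had the highest level of the oxidase genes. The motif was searched on both strands as CTTG followed, after any 5 bases, by CAAG or CACG, in the 300 bases before each annotated gene start of the RefSeq release of TAIR10 (TAIR10.1), the build named in the labels. AOX1A lies on chromosome 3 from 7906521 to 7908746 on the plus strand, with 4 exons, and AOX1B lies in tandem before it from 7904097 to 7905576, with 944 bases between them. NDA1 lies on chromosome 1 from 2204104 to 2207099 (8 exons) and NDB2 on chromosome 4 from 2572427 to 2576599 (11 exons), both on the plus strand. The windows are chr3:7906221-7906520 (AOX1A), chr3:7903797-7904096 (AOX1B), chr1:2203804-2204103 (NDA1) and chr4:2572127-2572426 (NDB2), printed 5′ to 3′ on the plus strand with motif matches in capitals.
AOX1A: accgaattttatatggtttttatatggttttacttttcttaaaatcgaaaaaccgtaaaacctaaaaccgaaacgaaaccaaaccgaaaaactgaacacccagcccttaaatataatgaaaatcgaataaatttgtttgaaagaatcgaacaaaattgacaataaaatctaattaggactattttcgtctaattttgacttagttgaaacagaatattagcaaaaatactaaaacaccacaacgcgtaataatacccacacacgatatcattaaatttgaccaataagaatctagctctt
AOX1B: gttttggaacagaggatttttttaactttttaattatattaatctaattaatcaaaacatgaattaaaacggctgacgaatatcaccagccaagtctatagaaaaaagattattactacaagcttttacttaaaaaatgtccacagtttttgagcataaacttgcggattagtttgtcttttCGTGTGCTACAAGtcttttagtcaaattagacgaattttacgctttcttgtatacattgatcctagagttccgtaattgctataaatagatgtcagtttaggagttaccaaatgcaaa
NDA1: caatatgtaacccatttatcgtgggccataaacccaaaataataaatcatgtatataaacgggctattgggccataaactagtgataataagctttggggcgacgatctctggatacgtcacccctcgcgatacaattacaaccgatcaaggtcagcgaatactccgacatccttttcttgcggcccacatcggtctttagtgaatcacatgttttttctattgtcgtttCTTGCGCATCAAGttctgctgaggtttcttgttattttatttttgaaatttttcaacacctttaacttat
NDB2: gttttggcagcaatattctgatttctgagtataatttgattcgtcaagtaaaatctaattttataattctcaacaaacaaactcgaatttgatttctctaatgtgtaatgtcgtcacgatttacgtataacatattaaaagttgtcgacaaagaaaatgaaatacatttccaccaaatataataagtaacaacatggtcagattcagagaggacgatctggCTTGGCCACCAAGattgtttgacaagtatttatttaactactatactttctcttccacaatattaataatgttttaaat
NDB2 held CTTGGCCACCAAG at 79 to 67 bases before its start and NDA1 held CTTGCGCATCAAG at 70 to 58 bases before its start, both of the CAAG form. AOX1B held the CACG form on the opposite strand, read on the gene's strand as CGTGTGCTACAAG, at 118 to 106 bases before its start. Among 27443 protein-coding genes, 0.860% held the CAAG form and 0.525% the CACG form in such a window. The AOX1A window held no match, and neither did those of the other 6 members. For motifs linked to light and the clock, the evening element AAATATCT (5.64% of genes) and the I-box GATAAG (14.5%) were in no member's window, and the G-box CACGTG (7.09%) was in that of AOX2 only, at 2 positions. These matches describe letters in the windows and were not tested for binding. Sequence after an annotated gene start was not searched, for AOX1A or any other member.

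Estimated counts summed to 15911356 to 33046562 per library. BOU itself was at 139 to 230 TPM (the length-normalised share of a transcript) in WT at day and 153 to 176 TPM in WT at night, against 80.2 to 80.7 and 65.2 to 67.0 TPM in bou-2, so transcript from the locus was reduced and still detected. The 4 leaf mesophyll markers summed to 23196 to 53056 TPM over all libraries, the 6 flower markers to at most 1.97 TPM and the 4 root markers to at most 46.7 TPM, 3 of them under 1 TPM throughout. The libraries of WT at day differed most among themselves (chi-square of 56.9 to 91.3 per transcript for a pair of libraries, against 9.75 to 25.99 within the other groups). Leaf markers were lower in bou-2 (3 of 4 at day and 4 of 4 at night), and their part in the results below was not tested. In bulk RNA, a change in the mix of cells and a change in transcript per cell cannot be told apart. A gene was called at a Benjamini-Hochberg adjusted p under 0.05 in edgeR's quasi-likelihood test over all transcripts. Log2 fold changes are those of that fit. Their standard errors (SE) are approximate, being the absolute log2 fold change divided by the square root of the test's F statistic. They are least certain for genes with counts near 0. Levels are TPM, a per-length scale on which genes can be compared. Of the 10 members, 9 passed the filter on low counts. AOX1B passed only through bou-2 at night and NDB4 only through the bou-2 groups, where they are high, so both are described by their counts and left out of the numbers of members called, which are over the other 7.

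In bou-2 at night, 4 of the 7 members rose above WT (AOX1A, AOX1D, NDA2 and NDB2), NDB1 fell, and NDA1 and AOX1C did not pass the test. Across all 20458 genes tested at night, 14.8% were called higher in bou-2 and 12.2% were called lower. At day, AOX1A rose and NDB1 fell, where 14.8% of all genes were called higher and 12.8% were called lower. The 7 members had a median log2 fold change of 0.74 at night (-0.75 to 2.87), beside a median of 0.02 over all genes. At day their median was 0.25 (-1.10 to 1.79), beside -0.04 over all genes. The transcripts of AOX1B and NDB4 were near 0 in WT and were found in bou-2, NDB4 at both times and AOX1B chiefly at night. None of the 9 members passed edgeR's interaction test, which sets the genotype effect at day against that at night, and in which 0.538% of genes were called with a higher and 0.645% with a lower effect at day. At an unadjusted p under 0.05 in the same edgeR test, 2 of the 7 members (AOX1D and NDB2) did so, and NDB4 as well, beside 16.5% of all genes in either direction. The Wald test of DESeq2 called AOX1D and NDB2 with a lower effect at day, and it also called more of all genes, 2.7% with a higher and 2.39% with a lower effect at day.

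**Figure D1:**
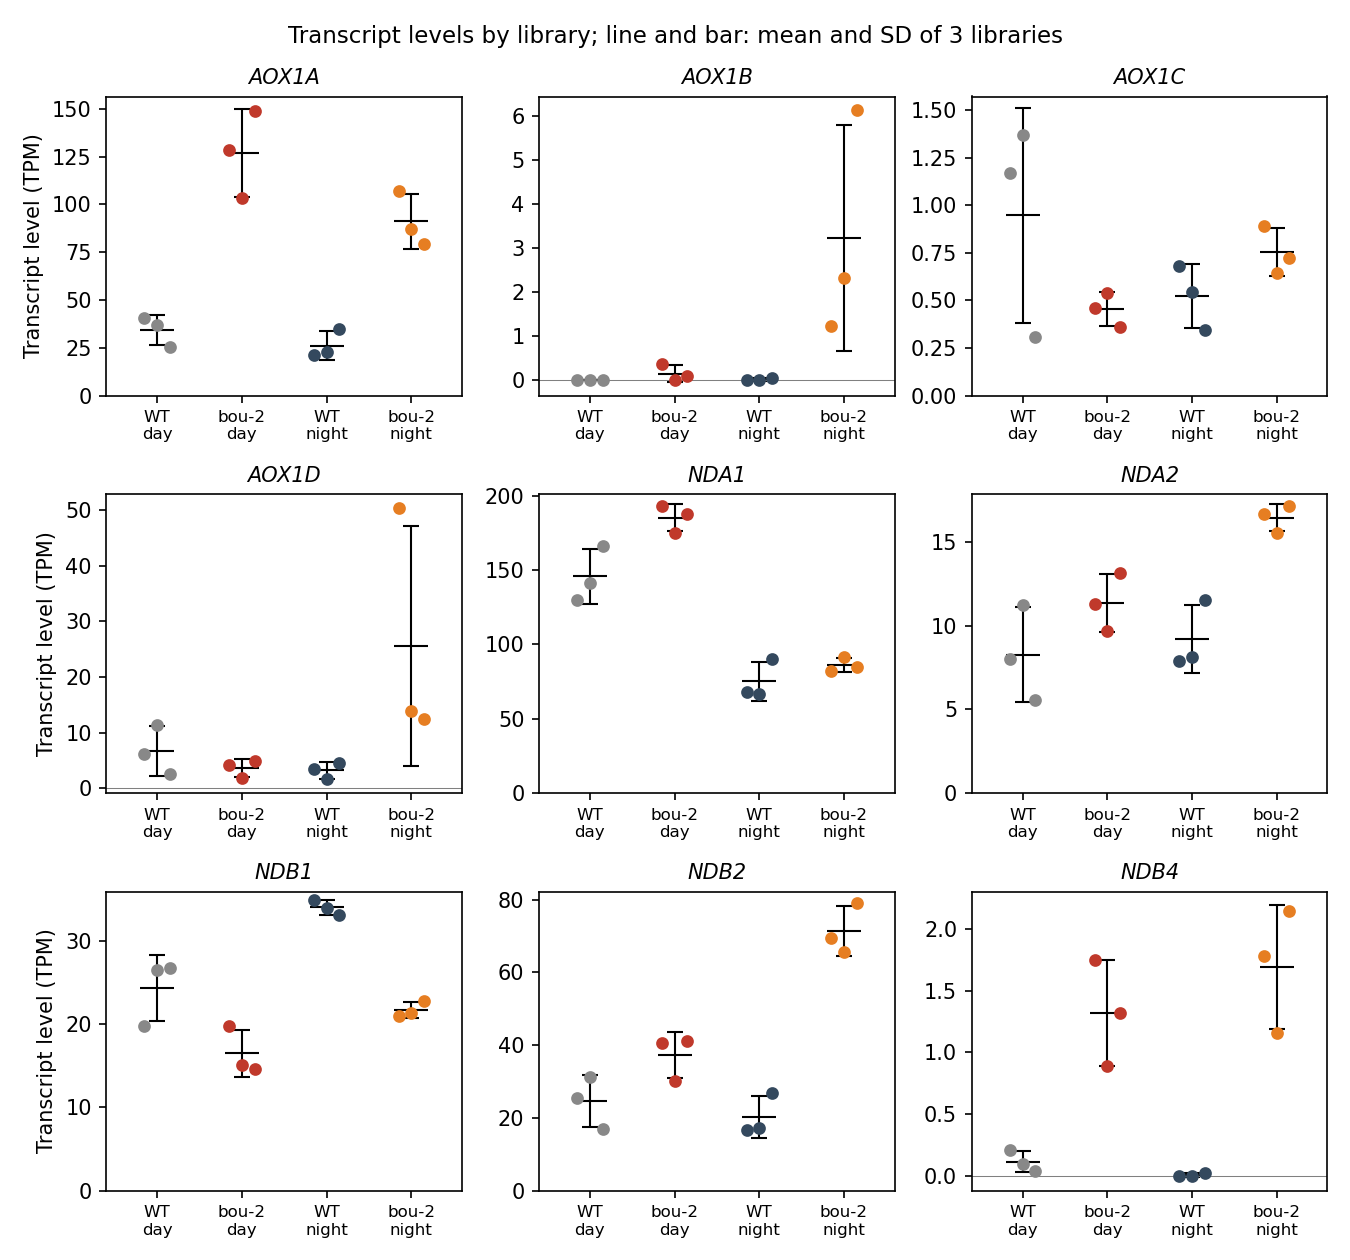
Transcript levels (TPM, vertical axes, a separate scale for each gene) of the 9 members that passed the filter, by genotype and time. Points are libraries, and line and bar are the mean and SD of 3 libraries. AOX1A is above 79 TPM in every bou-2 library and below 41 TPM in every WT library, while AOX1B and AOX1D are highest in bou-2 at night.

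AOX1A carried most of the oxidase transcript. It was at 40.7, 36.9 and 25.5 TPM in WT at day (34.4 ± 7.90 TPM, SD, n = 3) and at 128.6, 103.1 and 149.0 TPM in bou-2 at day (126.9 ± 23.0 TPM). At night it was at 21.1, 22.7 and 34.7 TPM in WT (26.1 ± 7.41 TPM) and at 107.2, 87.1 and 79.1 TPM in bou-2 (91.1 ± 14.5 TPM). All bou-2 libraries lay above all WT libraries. AOX1A rose 3.47-fold at day (log2 1.79, SE 0.20, adjusted p = 0.000227) and 3.25-fold at night (log2 1.70, SE 0.20, adjusted p = 0.000352). The effects at day and night differed by 0.10 on the log2 scale (SE 0.28, adjusted p = 0.913). Day against night, AOX1A was at 0.51 (SE 0.20, adjusted p = 0.156) in WT and 0.61 (SE 0.19, adjusted p = 0.0634) in bou-2, and the latter passed in 5 of 21 other analyses (with DESeq2, 0.64 with an adjusted p of 0.0121).

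AOX1B, the tandem neighbour whose expression is annotated as limited to flowers and floral buds, appeared in bou-2 at night. Its counts were 22, 50 and 112 there (1.23, 2.32 and 6.14 TPM), 5, 0 and 1 in bou-2 at day, 0, 0 and 1 in WT at night and 0 in each library of WT at day. All 3 libraries of bou-2 at night thus lay above every other library, though replicate 3 stood well above replicate 1. Summed over libraries and scaled by library size, 184 counts against 1 gave a ratio of 150 between bou-2 and WT at night, with an exact 95% counting interval of 26.7 to 5975, which covers counting error only. The edgeR fit gave AOX1B a log2 fold change of 6.85 at night (SE 1.35, adjusted p = 0.0073), which depends on the prior count. AOX1B entered this fit only through the group where it is high, and the adjusted p with no filter on low counts was 0.00726. At day, 6 counts in bou-2 against 0 in WT were at least 2.99-fold higher, taking 3 counts over the WT group as the limit that a count of 0 allows, and AOX1B was not called (adjusted p = 0.0937). AOX1B coding sequence was 81.4% identical to that of AOX1A and shared no 31-base word with it, the word length of kallisto, so reads of AOX1A are distinguishable from those of AOX1B. With AOX1C it was 86.8% identical and shared 38 such words, but the estimated counts of both were whole numbers (within 0.001) in 12 of 12 libraries, as they are when no read is divided between transcripts. The flower markers summed to 0.340 to 0.701 TPM in bou-2 at night and 0.542 to 1.53 TPM in WT at night, and all 6 were under 1 TPM in each library of bou-2 at night.

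AOX1D, an oxidase gene often raised in senescing leaves, was low in all groups but bou-2 at night. It was at 6.11, 11.4 and 2.54 TPM in WT at day, 4.23, 1.79 and 4.82 TPM in bou-2 at day, and 3.51, 1.59 and 4.64 TPM in WT at night. In bou-2 at night it was at 50.5, 13.9 and 12.4 TPM, each above every other library of the series, with replicate 1 standing well above replicates 2 and 3. AOX1D rose 7.29-fold at night (log2 2.87, SE 0.68, adjusted p = 0.0119), and without that library the log2 fold change was 1.90 (adjusted p = 0.0499). At day it was at -0.999 (SE 0.67, adjusted p = 0.316). The difference of the effects was -3.87 (SE 0.95, adjusted p = 0.0947), which passed with DESeq2 (adjusted p = 0.00149) and without replicate 3 of WT at day (adjusted p = 0.0335), a setting in which 2.64% and 2.57% of all genes were called with a higher and a lower effect at day. The 5 senescence markers summed to 278, 327 and 420 TPM in the same bou-2 night libraries and to 137 to 163 TPM in WT at night. In bou-2 at day, where AOX1D was low, they summed to 228, 259 and 418 TPM, and in WT at day to 78.0 to 337 TPM. At night 4 of the 5 markers lay above 0 in bou-2 over WT, with 1 called higher and 0 lower. At day 3 lay above 0, with 2 called higher and 0 lower, beside 14.8% of all genes called higher at each time. SAG13 (114 to 231 TPM) and the chlorophyll breakdown gene NYC1 (109 to 128 TPM) made up most of that sum in bou-2 at night. NYC1 was called higher in bou-2 at both times (log2 1.43 at day and 0.73 at night) and SGR1, another chlorophyll breakdown gene, at day (0.77), while SAG13 was not called at either time. SAG12, a protease gene that is a classic marker of leaf senescence, went the other way at night in 2 of 3 bou-2 libraries, at 16.5, 10.7 and 1.42 TPM in WT at night and 0.0838, 0.139 and 4.06 TPM in bou-2 at night, and was not called (log2 -2.87, adjusted p = 0.27). ORE1, a NAC factor of senescence, was at -0.85 (adjusted p = 0.102) at day and 0.90 (adjusted p = 0.0586) at night. The part of senescence in the AOX1D result was not tested.

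AOX1C, another minor oxidase gene, was at 0.307 to 1.37 TPM in all libraries. It was at -1.10 (SE 0.55, adjusted p = 0.177) at day and 0.41 (SE 0.54, adjusted p = 0.646) at night, so no change was detectable at this depth, and the day value passed only without replicate 3 of WT at day (log2 -1.49, adjusted p = 0.0431). AOX2, best known from seeds, had 0 counts in 11 libraries and 1 count in replicate 2 of bou-2 at night. A count of 0 allows up to 3 counts, or 0.0908 to 0.189 CPM (counts scaled to the library total) in these libraries. AOX2 was not tested. Together, the 5 oxidase genes summed to 42.0 ± 11.8 TPM in WT and 131 ± 24.5 TPM in bou-2 at day, and to 29.9 ± 8.45 and 121 ± 33.9 TPM at night. AOX1A made up 96.2 to 97.8% of that sum in bou-2 at day and 67.1 to 83.7% in bou-2 at night, so the oxidase transcript of bou-2 was more mixed in the night libraries than in the day libraries, whereas WT shares (74.2 to 90.0% at day, 83.4 to 91.4% at night) overlapped.

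The internal dehydrogenase gene NDA1 had the highest mean level of the members in 3 of the 4 groups and followed the time of day. In bou-2 at night AOX1A had the higher mean, at 91.1 TPM against 86.2 TPM for NDA1, and their libraries overlapped. It was at 129.6, 141.4 and 166.2 TPM in WT and 192.9, 175.0 and 188.1 TPM in bou-2 at day. At night it was at 68.3, 66.8 and 90.2 TPM in WT and 82.2, 91.7 and 84.7 TPM in bou-2. Every day library lay above every night library in both genotypes. NDA1 was higher at day than at night 2.13-fold in WT (log2 1.09, SE 0.14, adjusted p = 0.000821) and 2.37-fold in bou-2 (log2 1.24, SE 0.14, adjusted p = 0.000244). The genotype effect was 0.25 (SE 0.14, adjusted p = 0.227) at day and 0.10 (SE 0.14, adjusted p = 0.678) at night and was not called, although the bou-2 libraries at day all lay above those of WT. Without replicate 3 of WT at day, the day value was 0.42 and passed the test (adjusted p = 0.0392). The window of NDA1 holds the same form of the motif as that of NDB2, whose values follow.

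NDA2, the other internal dehydrogenase gene, is 80.5% identical to NDA1 in coding sequence but was far lower and had another pattern. It was at 7.99, 11.3 and 5.59 TPM in WT and 11.3, 9.67 and 13.1 TPM in bou-2 at day. At night it was at 7.91, 8.11 and 11.6 TPM in WT and 16.66, 15.55 and 17.15 TPM in bou-2. The bou-2 libraries at night lay above all others of NDA2. NDA2 rose 1.67-fold at night (log2 0.74, SE 0.21, adjusted p = 0.0273). The call was lost without any one of 5 of the 6 night libraries (adjusted p of 0.0562 to 0.105), and only leaving out replicate 3 of WT kept it. At day it was at 0.37 (SE 0.21, adjusted p = 0.236), and it passed without replicate 2 of WT at day (log2 0.66, adjusted p = 0.0187). The NDA1 to NDA2 ratio of TPM was 7.81 to 8.63 in WT and 4.93 to 5.90 in bou-2 at night, without overlap. At day the ratio was 12.6 to 29.8 in WT and 14.3 to 18.1 in bou-2, and the groups overlapped.

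Of the external dehydrogenases, NDB2, which oxidises NADH and is stimulated by calcium, rose at night. It was at 25.5, 31.2 and 17.0 TPM in WT and 40.52, 30.02 and 41.10 TPM in bou-2 at day. At night it was at 16.7, 17.1 and 26.9 TPM in WT and 69.4, 65.7 and 79.0 TPM in bou-2. The night groups were far apart, and the day groups overlapped in 1 library each. NDB2 rose 3.29-fold at night (log2 1.72, SE 0.21, adjusted p = 0.000471) and was at 0.52 (SE 0.21, adjusted p = 0.101) at day, passing there only without replicate 2 of WT at day (log2 0.73, adjusted p = 0.0274). The difference of the effects was -1.20 (SE 0.30, adjusted p = 0.096), which passed with DESeq2 (adjusted p = 0.00601) and without replicate 3 of WT at day (adjusted p = 0.0243). In bou-2, NDB2 was lower at day than at night (log2 -0.81, SE 0.21, adjusted p = 0.0277), and in WT it was at 0.39 (SE 0.21, adjusted p = 0.313).

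NDB1, the external enzyme known for oxidising NADPH, went the other way. It was at 19.7, 26.5 and 26.7 TPM in WT and 19.7, 15.1 and 14.6 TPM in bou-2 at day. At night it was at 34.8, 34.0 and 33.1 TPM in WT and 21.0, 21.3 and 22.7 TPM in bou-2. The night groups were separate with little spread, while at day replicate 1 of WT and replicate 1 of bou-2 were at nearly the same level. NDB1 fell by 0.75 on the log2 scale at night (SE 0.15, adjusted p = 0.00581) and at day by 0.65 (SE 0.16, adjusted p = 0.0124). The day call was lost when only the day libraries were fitted (adjusted p = 0.0919) and without replicate 3 of bou-2 at day (adjusted p = 0.0522). The ratio of NDB2 to NDB1 was 0.480 to 0.812 in WT at night and 3.08 to 3.48 in bou-2 at night, and 0.636 to 1.29 and 1.99 to 2.81 at day. In each of the 6 WT night and bou-2 night libraries the order of the pair was the same within the genotype, NDB1 above NDB2 in WT and NDB2 above NDB1 in bou-2.

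NDB4, an external NADH dehydrogenase, was near 0 in WT and was detected in every bou-2 library. Its counts were 9, 4 and 2 in WT at day, 0, 0 and 1 in WT at night, 48, 30 and 31 in bou-2 at day and 64, 50 and 79 in bou-2 at night. In TPM, bou-2 was at 1.75, 0.892 and 1.32 at day and 1.78, 1.15 and 2.14 at night, and the highest WT library at 0.209. The genotypes did not overlap at either time, and NDB4 stayed a minor transcript beside NDB2. The edgeR fit put NDB4 10.7-fold higher in bou-2 at day (log2 3.42, SE 0.60, adjusted p = 0.0028). At night 193 counts against 1 gave a ratio of 158, with an exact 95% counting interval of 28.0 to 6266 (edgeR adjusted p = 0.000352). NDB4 entered the fit only through the bou-2 groups, and with no filter on low counts the adjusted p was 0.0031 at day and 0.000306 at night. In WT, NDB4 was called higher at day than at night (log2 3.27, SE 0.89, adjusted p = 0.0461), which rests on 15 counts against 1 (a ratio of 12.5 with an exact 95% counting interval of 1.92 to 526) and was lost in 16 of 20 other analyses. Summed over NDB1, NDB2 and NDB4, external dehydrogenase transcript was at 54.2 ± 5.05 TPM in WT and 94.7 ± 8.15 TPM in bou-2 at night, and at 49.0 ± 7.61 and 55.0 ± 8.18 TPM at day, where the groups overlapped.

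**Figure D2:**
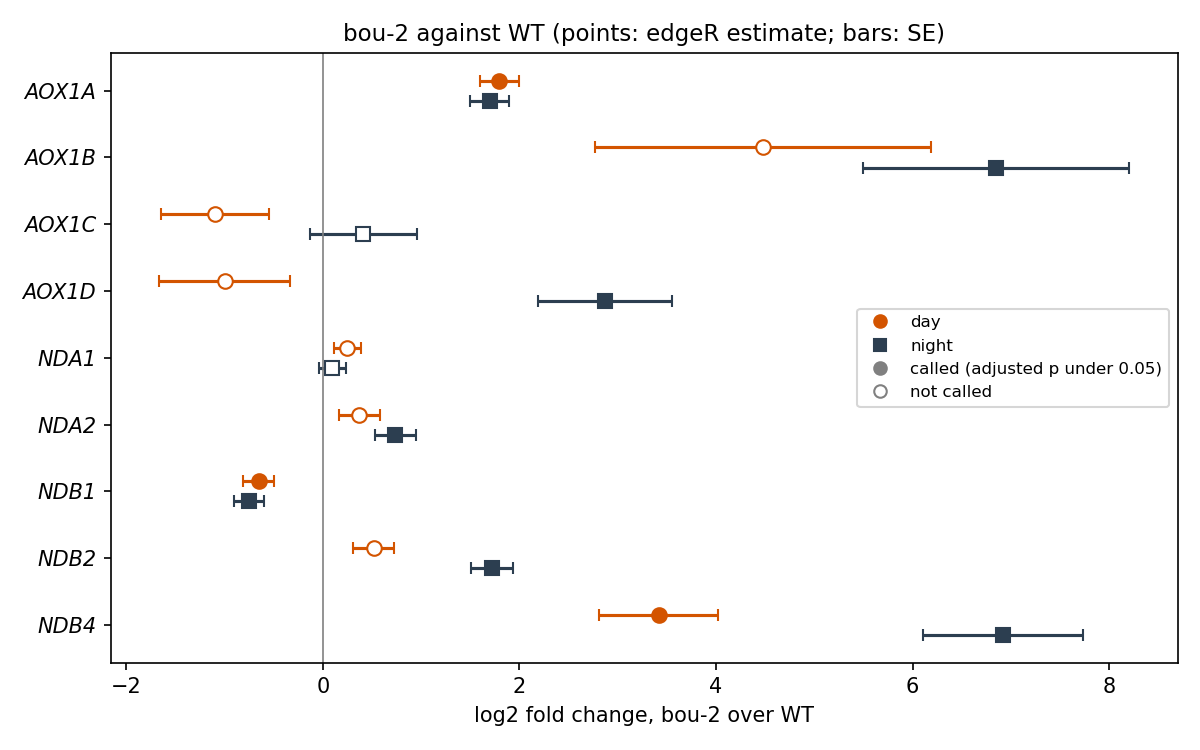
Log2 fold change of bou-2 over WT (horizontal axis) for each tested member at day (circles) and night (squares), with SE as bars and filled symbols for called genes. AOX1A and NDB1 show near equal values at both times, AOX1D, NDB2 and NDA2 are called at night alone, and the values of AOX1B, whose WT groups hold 0 and 1 counts, depend on the prior count.

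Day against night in WT, 1 of the 7 members was called higher at day (NDA1) and none lower, beside 5.58% and 3.88% of all genes. In bou-2, NDA1 was called higher at day, beside 7.68% of all genes, and AOX1D and NDB2 lower, beside 7.69%. AOX1B, which passed the filter only through the night libraries of bou-2, was at -4.27 in the edgeR fit (SE 1.12, adjusted p = 0.0368, and 0.0407 with no filter on low counts), from 6 counts at day against 184 at night, a night to day ratio of 20.1 with an exact 95% counting interval of 9.07 to 55.6. AOX1D was at -2.72 (SE 0.68, adjusted p = 0.024). The calls of AOX1B, AOX1D and NDB2 were each lost when single libraries were left out, with adjusted p up to 0.148, 0.101 and 0.116. Genotype and time contrasts share libraries, so the differences of bou-2 at night from WT and from bou-2 at day rest on the same 3 libraries.

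**Figure D3:**
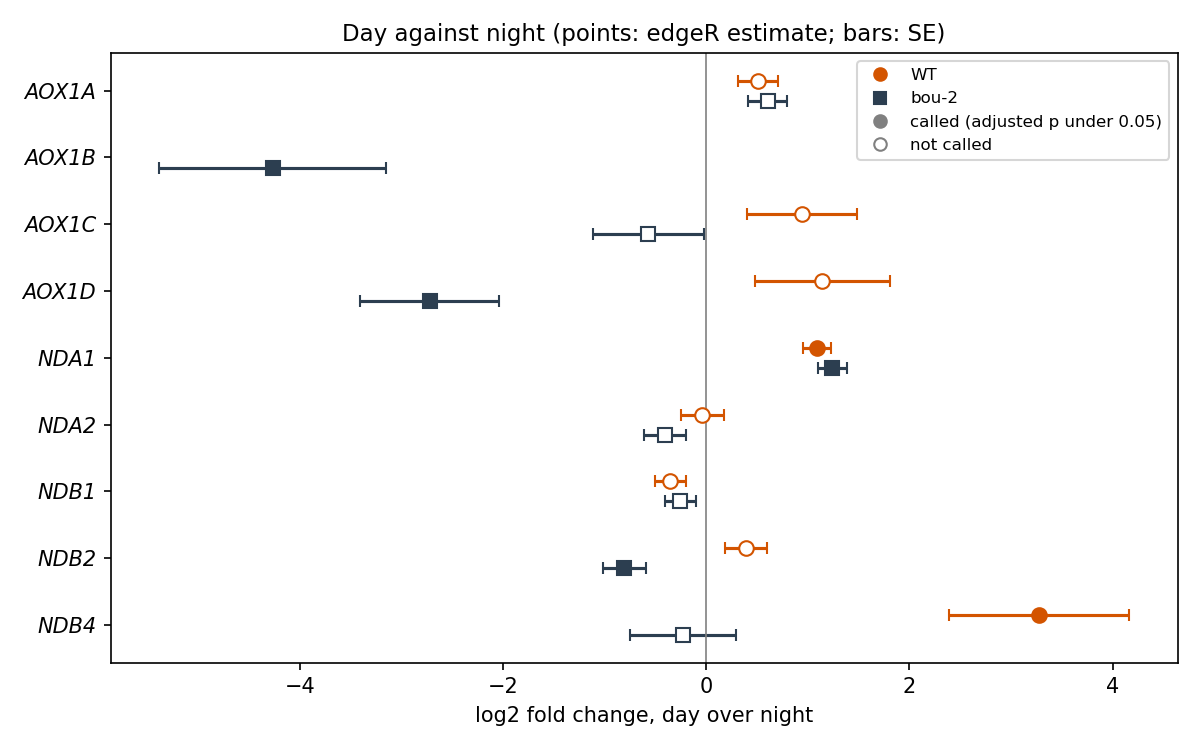
Log2 fold change of day over night (horizontal axis) for each tested member in WT (circles) and bou-2 (squares), with SE as bars and filled symbols for called genes. NDA1 is higher at day in both genotypes, and AOX1B, AOX1D and NDB2 are lower at day in bou-2. AOX1B has no WT value because its WT groups hold 0 and 1 counts.

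Of the other genes of alternative electron transport, NDB3 rose at night and PTOX at both times. NDB3, an external dehydrogenase gene, was at 0.170, 0.238 and 0.283 TPM in WT and 0.811, 1.11 and 0.961 TPM in bou-2 at night and rose there (log2 1.94, SE 0.48, adjusted p = 0.0143), with 0.30 (adjusted p = 0.695) at day. PTOX, the plastid terminal oxidase of carotenoid synthesis and a relative of the alternative oxidases, rose at both times (log2 0.76 and 0.59, adjusted p = 0.00115 and 0.00424). Its levels were 32.0 to 40.9 TPM in WT and 59.4 to 75.3 TPM in bou-2 at day, and 41.1 to 49.2 and 70.2 to 73.1 TPM at night. NDC1, a dehydrogenase found in plastids as well as mitochondria, was at 0.23 at both times and not called (adjusted p = 0.25 and 0.255), but was higher at day than at night in bou-2 (log2 0.47, adjusted p = 0.0405). Of the uncoupling proteins, inner membrane carriers that dissipate the proton gradient, UCP1 rose from 53.9 ± 9.89 to 86.9 ± 3.95 TPM at day and from 69.8 ± 2.54 to 97.5 ± 3.57 TPM at night (log2 0.59 and 0.38, adjusted p = 0.0054 and 0.0419). UCP2 (-0.29 and -0.20) and UCP3 (0.10 and -0.14) were not called at either time.

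The phosphorylating chain that the members bypass was followed through 64 nuclear genes in 5 lists. At day 21 rose and 1 fell, and at night 13 rose and 1 fell (median log2 fold change 0.23 and 0.13). Of all genes tested, 14.8% were called higher at each time, and 12.8% at day and 12.2% at night were called lower. The counts of complex I at both times and of ATP synthase at night were near these shares or below them. Complex I, which the dehydrogenases bypass, had 5 of 29 genes called higher and 1 called lower at day, and 2 and 1 at night (medians 0.12 and 0.03). Its largest rise was TYKY2, an iron-sulfur subunit, at 0.62 and 0.36, and B13 was lower at -0.36 and -0.39. Complex III, bypassed by the oxidases, had 7 of 15 genes higher at day and 6 at night and none lower (medians 0.37 and 0.30), led by the cytochrome c1 gene CYC1-1 (0.76 and 0.71). Both cytochrome c genes rose at both times, CYTC-1 by 0.72 and 0.72 and CYTC-2 by 0.47 and 0.94. Complex IV had 4 of 9 genes higher at day and 2 at night (medians 0.31 and 0.23), among them COX6b-1 (0.50 and 0.64) and COX5b-2 (0.53 and 0.39). ATP synthase had 3 of 9 higher at day and 1 at night, the night one being ATPB3, a catalytic beta subunit (0.40 and 0.61). All called rises in these 5 lists were under 1 on the log2 scale, below those of AOX1A at both times, a comparison that was not tested.

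Among 9 other dehydrogenases and electron transfer genes that feed ubiquinone, 3 rose at day and the same number at night (medians 0.14 and 0.29). PRODH1, the proline dehydrogenase gene, was at 1.40 and 1.64, and IVD, the isovaleryl-CoA dehydrogenase gene of branched-chain amino acid breakdown, at 1.00 and 0.85. Of 6 nuclear genes for proteins that rise in mitochondrial stress, 5 were called higher at day and 5 at night (medians 1.80 and 2.09). UGT74E2, a glucosyltransferase gene, was at 5.39 and 2.78, and AT12CYS-2, a small mitochondrial protein gene, at 2.76 and 3.95. Of 10 genes known as regulators of AOX1A, 9 were tested. At day 2 rose and 1 fell, and at night 4 rose and 1 fell (medians -0.10 and 0.29). Of the 9, 4 lay above 0 at day and 7 at night. Over all genes the shares called higher and lower were 14.8% and 12.8% at day and 14.8% and 12.2% at night. These shares also stand beside the counts of the lists above. The regulators named next are called ones of largest change, and values of the others are not given here. The activator WRKY63 was at 2.85 and 3.50 with levels of at most 3.16 TPM. ANAC013, a membrane-bound NAC factor, was at 0.43 and 0.60, and the related ANAC016 at 2.09 at night. MYB29, described as a negative regulator of AOX1A and best known from glucosinolate synthesis, fell by 1.38 at day and by 2.16 at night on the log2 scale. These lists were chosen with earlier results of the same data known, so their counts describe the surroundings of the members and are no independent evidence.

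**Figure D4:**
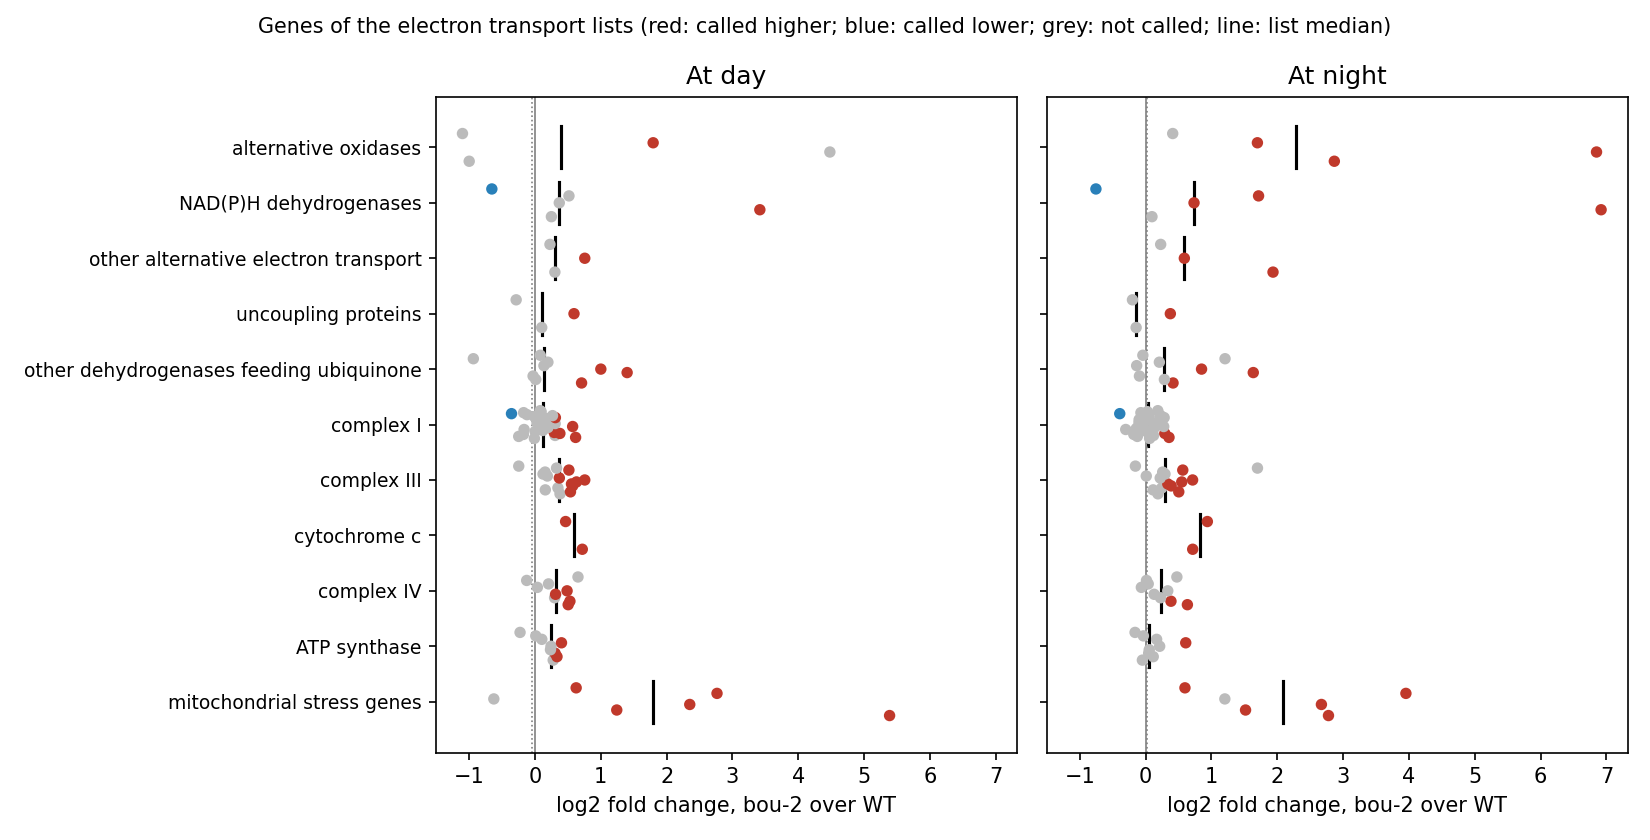
Log2 fold change of bou-2 over WT (horizontal axes) at day and at night for each tested gene of the electron transport lists (rows). Points are genes, red if called higher, blue if called lower and grey if not called, the black line is the list median and the dotted line the median of all genes. Genes of complexes I, III and IV and ATP synthase lie mostly within 1 of 0, with medians from 0.03 to 0.37, while AOX1A, AOX1B, AOX1D, NDB2 and NDB4 exceed 1.5 at night.

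The genes with patterns most like the members were taken by Pearson's r of log2(TPM + 1) over the 12 libraries, among 15303 genes with a mean of at least 5 TPM in a group. The 12 points fall into 4 groups, so such an r mostly reflects the group means, and it is given as a description. Closest to AOX1A were GSTU24, a glutathione transferase gene (r = 0.984), AT5G51440 (0.981), UGT73B4, a glucosyltransferase gene (0.976), ATNTT2, a plastid ATP/ADP carrier gene (0.976), and AT1G15870 (0.975). GSTU24 was at 10.2 TPM in WT and 121 TPM in bou-2 at day and at 7.61 and 86.0 TPM at night, the order of groups seen for AOX1A. Closest to NDB2 were AT4G33920 (0.985), the GRAS gene SCL1 (0.980), the mitochondrial phosphate carrier gene PHT3;2 (0.979), AT1G77840 (0.978) and PGIP1 (0.975). PHT3;2 was at 4.62 and 11.5 TPM in WT and bou-2 at day and 2.43 and 27.4 TPM at night, again highest in bou-2 at night. Closest to NDA1 were UGT71C4 (0.981), the squalene epoxidase gene SQE3 (0.978), AT4G34550 (0.970), TPD1 (0.966) and the plastid sigma factor gene SIGE (0.966). SIGE was at 327 and 544 TPM at day and 40.2 and 71.8 TPM at night, with both day groups above both night groups as for NDA1. Among the members themselves, r was 0.779 between AOX1A and NDB2, 0.458 between AOX1A and NDA1 and -0.02 between NDB2 and NDA1.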

How the data were processed

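RNA from 12 leaf or rosette samples was sequenced by the authors as paired reads, which per the labels and methods were quantified with kallisto 0.43.0 against the TAIR10 transcriptome and tested with sleuth 0.28.1; the labels also name CASAVA. The deposited estimated counts are kallisto output without normalization. The TPM values were scaled per library by the authors. The deposited SD and mean TPM (a non-negative signal column and its mean), log2 ratios and p-values (q-values) of the authors' comparisons were not used. Columns were assigned to samples by their names. The table had 41415 lines, of which 23 repeated a transcript and were dropped, leaving 41392.

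Rounded estimated counts entered edgeR 4.0.16 under R 4.3.3 (filterByExpr with minimum count 10, minimum total 15 and proportion 0.7; TMM; quasi-likelihood fit with 1 mean per group over 12 libraries), which tested 26153 transcripts (20458 genes by primary transcript). The biological coefficient of variation was 28.4%, and p-values rest on the spread of 3 libraries a group. Fold changes follow TMM scaling and so differ slightly from ratios of TPM. The edgeR fit was tried on simulated counts for bou-2 against WT at day, with a dispersion below that of the data. Other steps were not tried on simulated data. Counting intervals are exact binomial intervals at 95%. Promoter windows, read from the TAIR10.1 genome with its RefSeq annotation because no promoter table was at hand, were added after values had been seen. The alternatives were DESeq2 1.42.0 and its size factors, no filter, limma 3.58.1 on log2(TPM + 1) or log2(TPM + 0.1), counts summed per gene, only the groups compared, a replicate block, the 10 most abundant transcripts left out, and each library left out.

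Named genes are all 10 members, the lists of other alternative electron transport and uncoupling proteins, up to 2 called genes of largest change per direction and genotype contrast of each other list, and the 5 genes most like AOX1A, NDB2 and NDA1. The members and lists were chosen with earlier results of these data known.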

Additional observations from a re-analysis of the deposited data

Results flagged for a closer look

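NDB2 has a second annotated transcript, AT4G05020.2, which the comparisons above did not use. It was detected in each library of bou-2 at night, at 0.144, 0.114 and 0.651 TPM (0.303 ± 0.302 TPM, SD, n = 3), and was listed at 0 in each library of WT at night. At day it was found in replicate 1 of WT (0.107 TPM) and replicate 1 of bou-2 (0.381 TPM) alone. These values are fractions of reads divided by kallisto between both NDB2 transcripts, at under 1% of the level of the first, and they were not tested.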

How the results depend on the processing

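In the genotype contrasts, AOX1A at both times and AOX1D, NDB1 and NDB2 at night stayed called in the same direction in all 21 other analyses. AOX1B at night and NDB4 at both times stayed called as well. Both had passed the filter through the groups where they are high, and only the analysis with no filter was free of it. Their staying called is therefore no independent support. Of 932 single-gene values, 863 kept their direction and side of the threshold, 45 lost a call, 17 gained one and 7 changed sign, none of these called. The cause was not tested. The counts of members that follow are over all 9 tested, AOX1B and NDB4 included, which passed the filter through the groups where they are high. The count of members called higher at day was 2, beside 14.8% of all genes. It was 2 to 4 when a library was left out, beside 10.7% to 15.6% of all genes. The count called lower at day was 1, beside 12.8% of all genes. It was 0 with only the groups compared (4.15% of all genes) and 0 to 2 when a library was left out (7.59% to 13.7%). For day against night in WT, 2 were called higher, beside 5.58% of all genes. The count was 1 (NDA1) with the DESeq2 Wald test (8.06% of all genes), without a filter (3.76%) and with limma at either pseudocount (3.56% and 3.54%). It was also 1 with only the groups compared (2.14%) and with the replicate block (4.34%), and 1 to 2 when a library was left out (2.97% to 6.71%). Called lower were 0, beside 3.88% of all genes. With limma at either pseudocount 1 was called lower (NDB1), beside 7.86% and 7.65% of all genes. For day against night in bou-2, 1 was called higher, beside 7.68% of all genes. The count was 2 (with AOX1A added) with DESeq2 (11.2% of all genes), counts summed per gene (10.8%) or only the groups compared (12%). It was 1 to 2 when a library was left out (4.71% to 9.35%). Called lower were 3, beside 7.69% of all genes. That count was 0 with the replicate block (5.77%) and 0 to 3 when a library was left out (3.46% to 9.86%). For the interaction, 0 members were called, 2 lower with DESeq2 (AOX1D and NDB2) and 0 to 2 when a library was left out, the 2 only without replicate 3 of WT at day. In those settings calls over all genes rose too, from 110 higher and 132 lower to 552 and 488 with DESeq2 and to 548 and 534 without that library. With only the groups compared, calls over all genes fell from 3021 higher and 2627 lower to 1452 and 822 at day, and from 1142 and 794 to 424 and 267 for day against night in WT. Sign changes came only when a library was left out, for NDA2 day against night in WT (-0.33 to 0.15 over the libraries), NDB4 day against night in bou-2 (-0.44 to 0.0012), and the interactions of AOX1A (-0.14 to 0.25) and NDB1 (-0.0655 to 0.245).

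Replicate numbers did not pair the samples (same-numbered libraries correlated at -0.09 to 0.07 after group means were removed). With the replicate block, NDA2 at night (adjusted p = 0.05), NDB4 day against night in WT (0.0719), and AOX1B (0.0809), AOX1D (0.0518) and NDB2 (0.0568) day against night in bou-2 lost their calls. Depth limits AOX1B, AOX1C, AOX2 and NDB4, whose WT levels rest on few counts. A window of 1000 bases, added after values had been seen, held the CAAG form of the motif in the same 2 members. It held the CACG form also in NDB2, and the AOX1A window still held none. This window too ended at the annotated gene start, and sequence after that start was not searched.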
